A study of Mus musculus with 3 samples.

Results

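The RNAs described here are the U6 small nuclear RNA and the small nucleolar RNAs, which small-RNA assays often use as loading references. Every probe whose name contained U6-snRNA or SNORD was taken, which gave 12 probes of 1408, namely 2 for U6 and 10 for small nucleolar RNAs. The samples were cultures of mouse dendritic cells derived from bone marrow (BMDCs), which take up and present antigen, and their total RNA was labelled with the Hy3 dye and read on 3 single-colour capture arrays. The control group is labelled only as control BMDCs, with no tumour cells, culture time or serum given. In the other groups BMDCs shared transwell plates with a mouse tumour line for 24 h, in medium holding 3% serum. The line was ID8, of ovarian origin and spelled 1D8 in the deposited table, or CT-26, a colon carcinoma. Strain, sex and age of the mice are not given in the sources used here. With 1 array a group, replicates and tests are lacking, each ratio compares 2 arrays, and the number of arrays limits the precision.

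U6 is the small nuclear RNA at the catalytic core of the spliceosome, and RNA polymerase III makes it. Small nucleolar RNAs of the C/D box class, which the SNORD names denote, mostly guide ribose methylation of ribosomal RNA and are cut from introns of host genes, while a few, among them the U3 RNA encoded by SNORD3, act in the cleavage of precursor ribosomal RNA. Both kinds are used as references on the premise that their amount per cell stays the same between samples. The SNORD probes carry the prefix hsa, for human. A mouse gene of the same symbol was found for 6 of the 10 names among RefSeq genes of mouse assembly GRCm38.p6. Of these, Snord2 lies within Eif4a2, Snord4a within Rpl23a, Snord12 within Zfas1 and Snord15a within Rps3, and no gene in that table contains Snord13 or Snord118.

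Signal was set against a floor of 50 units of corrected intensity, the scanner intensity from which the authors had subtracted a local background. Of 579 mouse miRNA probes, 175 reached it in the control, 192 in ID8 and 178 in CT-26. Blood and myeloid miRNAs, 7 in number, were used to check the cell type. They reached the floor in 5, 7 and 7 cases, with summed corrected intensities of 822, 2654.5 and 2367 units. The members under it in the control were miR-223 and miR-155, and the lowest reading there was 49 units. Of 6 epithelial miRNAs miR-200b alone reached it, and that on all 3 arrays. Of 2 lymphocyte miRNAs, miR-150 reached it in ID8 alone, with summed intensities of 60.5, 77.75 and 56.75 units. Of 2 red cell miRNAs, miR-451 reached it in both co-cultures, with sums of 40, 89.5 and 75 units. In these bulk samples, fewer cells of a type and less RNA per cell cannot be told apart.

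Most of the reference probes gave little signal. The control array had 4 at the floor, the ID8 array 5 and the CT-26 array 4. U6-snRNA-2, SNORD3@ and SNORD2 reached it on all 3 arrays, U6-snRNA-1 and SNORD13 on 2 arrays each, and the other 7 on none. The local background at these 12 probes lay between 54.75 and 61.75 units in the control, 48.25 and 50.5 in ID8, and 47 and 50 in CT-26.

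**Figure D1:**
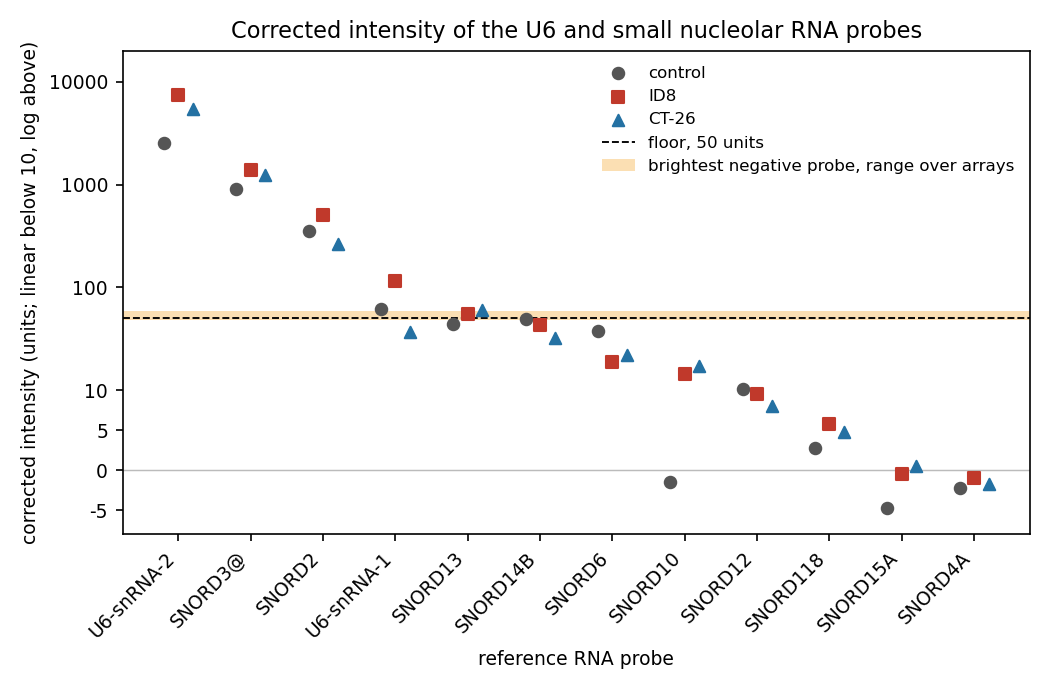
Corrected intensity (units, linear below 10 and logarithmic above) of each of the 12 reference RNA probes on the control (circles), ID8 (squares) and CT-26 (triangles) arrays, with the floor of 50 units as a dashed line and the range of the brightest negative probe over the arrays as a band. U6-snRNA-2, SNORD3@ and SNORD2 lie above the floor on every array, and 7 probes lie under it on every array.

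U6-snRNA-2 read 2522 units of corrected intensity in the control, 7445 in ID8 and 5464.5 in CT-26. After the authors' normalization its intensity was 7.76, 18.7 and 16.3 in the same order. Both co-culture arrays were thus higher than the control array before and after normalization, and the ID8 array was the highest. The log2 ratio of normalized intensity was 1.27 for ID8 over control, a 2.41-fold difference, and 1.07 for CT-26 over control, a 2.10-fold difference. For ID8 over CT-26 it was 0.20. Of 165 mouse miRNAs at the floor on both arrays, 160 had a lower ratio of ID8 over control than U6-snRNA-2, and of 158 for CT-26 over control 139 did.

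The other probe named for the same RNA, U6-snRNA-1, gave a weak signal and another order of the arrays. Its corrected intensity was 61.5 units in the control, 116 in ID8 and 36.5 in CT-26, and its raw intensity was 122.25, 166.5 and 83.75. The CT-26 array, where U6-snRNA-2 was more than 2-fold above the control, was here the lowest of the 3 and under the floor. The log2 ratio of normalized intensity was 0.62 for ID8 over control, which is 0.65 below that of U6-snRNA-2. The CT-26 reading of U6-snRNA-1 was at least 1.27-fold below the control and at least 1.95-fold below ID8. These bounds set the brighter reading against the lowest normalized intensity of a mouse probe above the floor on the dimmer array. The brightest negative probe read 59 units in the control, 48.5 in ID8 and 52 in CT-26, so U6-snRNA-1 was 2.5 units above it in the control, clearly above it in ID8 alone and under it in CT-26. Its ratios and bounds to the control therefore rest on a reading near that of the brightest negative probe. The other 7 negative probes read at most 10.75, 8.5 and 6.25 units in the order control, ID8 and CT-26, under U6-snRNA-1 on every array. The 0.62 became 0.15 with raw intensity over the authors' constant and 0.28 with an offset of 50.

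hsa_SNORD3@, named for the genes of U3, which takes part in the first cleavages of the ribosomal RNA precursor, read 895 units of corrected intensity in the control, 1382 in ID8 and 1244 in CT-26. Its normalized intensity was 2.75, 3.47 and 3.71. Both co-culture arrays were above the control array, by less than for U6-snRNA-2, and which of them was higher turned with normalization. The log2 ratio of normalized intensity was 0.33 for ID8 over control, 0.43 for CT-26 over control and -0.10 for ID8 over CT-26.

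hsa_SNORD2, a guide for ribose methylation from an intron of Eif4a2, a translation initiation factor gene, read 352.5 units of corrected intensity in the control, 507 in ID8 and 262.5 in CT-26. Its normalized intensity was 1.08, 1.27 and 0.783. The ID8 array was the highest and the CT-26 array the lowest, so the co-cultures lay on opposite sides of the control. The log2 ratio of normalized intensity was 0.23 for ID8 over control, -0.47 for CT-26 over control and 0.70 for ID8 over CT-26. For the last, 166 of 175 mouse miRNAs had a lower ratio.

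hsa_SNORD13, the U13 RNA, which acts in the acetylation of small-subunit ribosomal RNA and has a gene of its own outside other genes in the table used, stayed close to the floor. Its corrected intensity was 43.75 units in the control, 54.75 in ID8 and 59.75 in CT-26. The brightest of 8 negative probes, hsa_negative_control_5, read 59, 48.5 and 52 units on the same arrays, and the other 7 at most 10.75, 8.5 and 6.25. SNORD13 was thus under that negative probe on the control array and above it on both co-culture arrays by less than 10 units. Its log2 ratio of normalized intensity for ID8 over CT-26 was -0.37, and it was at least 1.15-fold higher on the CT-26 array than on the control array. For ID8 over control no bound above 1-fold could be set.

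The remaining 7 probes were under the floor on every array, so no ratio is given for them. Their readings follow in the order control, ID8 and CT-26. SNORD14B, the U14 RNA needed for processing of small-subunit ribosomal RNA, came closest, with corrected intensities of 49, 43 and 32.25 units. SNORD6 read 37.75, 18.75 and 21.75 units, with the control array the highest for both. SNORD10 read -1.5 units on the control array and 14.25 and 17.25 on the ID8 and CT-26 arrays. hsa_SNORD12, from the Zfas1 host transcript, read 10.25, 9.5 and 8 units. hsa_SNORD118, the U8 RNA of large-subunit ribosomal RNA processing, read 2.75, 5.75 and 4.75 units. SNORD15A read between -4.75 and 0.5 units and SNORD4A between -2.25 and -1. The brightest of 21 empty spots read 6, 1.75 and 2.25 units, so SNORD4A and SNORD15A did not exceed empty spots on any array. A reading under the floor shows that the human-named probe gave little signal, and whether the RNA was absent was not tested.

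How far the reference probes differed from each other was read from their log2 ratios for the same pair of arrays, which 1 scaling factor per array cannot bring together. For ID8 over control, 4 probes were measured, and their log2 ratios of normalized intensity ran from 0.23 for SNORD2 to 1.27 for U6-snRNA-2, a range of 1.04. SNORD2 and SNORD3@ stood 0.10 apart. The CT-26 array over the control had 3 measured probes, from -0.47 for SNORD2 to 1.07 for U6-snRNA-2, a range of 1.54 or 2.91-fold, and here SNORD2 was 0.90 below SNORD3@. Between the co-cultures, ID8 over CT-26, 4 ran from -0.37 for SNORD13 to 0.70 for SNORD2, a range of 1.08. Without SNORD13, which was near the floor, the range was 0.80, from SNORD3@ to SNORD2. The pair of probes that lay close together in the first comparison was thus apart in the other comparisons. Both comparisons with the control share its array.

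The probe past 2-fold was U6-snRNA-2 in both comparisons with the control. It was 1 of 4 measured probes higher for ID8 over control, where 4.85% of mouse miRNAs were at least 2-fold higher, and 1 of 3 for CT-26 over control, where 13.3% were. For ID8 over CT-26 0 of 4 passed 2-fold in either direction, where 8.57% of mouse miRNAs did. U6-snRNA-1, under the floor in CT-26, was not among these 4, and it was at least 1.95-fold higher in ID8 than in CT-26. The median log2 ratio of the measured reference probes was 0.48, 0.43 and 0.05 in these comparisons. Over all mouse miRNAs measured it was 0.02, 0.01 and -0.01, which the authors' scaling to the median of such miRNAs sets near 0. With so few probes these shares say little about the group.

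The difference between arrays that each reference implies was also taken before normalization, as the log2 ratio of corrected intensity. For ID8 over control it was 1.56 by U6-snRNA-2, 0.92 by U6-snRNA-1, 0.63 by SNORD3@ and 0.52 by SNORD2, against 0.29 by the authors' constant. The median of 40 marker spots, named Hy3 after the dye, gave 0.003, with 3885 units on the control array and 3894 on the ID8 array. Beside CT-26 cells it was 1.12 over the control by U6-snRNA-2, 0.47 by SNORD3@ and -0.43 by SNORD2, against 0.04 by the authors' constant and -0.05 by the marker spots. All 4 reference probes measured for ID8 over control thus placed the ID8 array further above the control array than the authors' constant did. For CT-26 over control SNORD2 placed the CT-26 array below the control array, while U6-snRNA-2 and SNORD3@ placed it above.

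**Figure D2:**
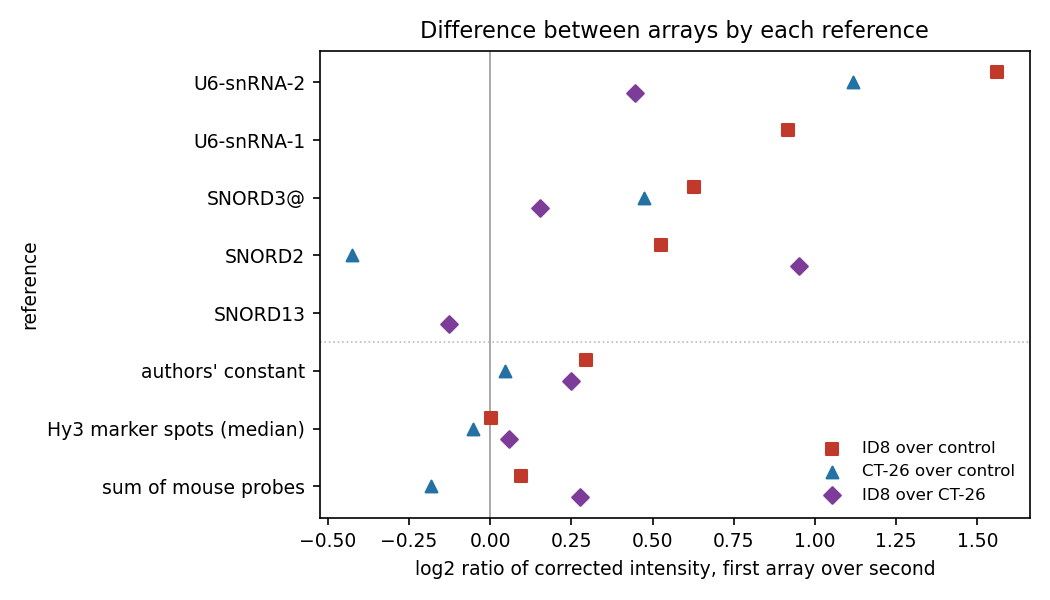
Log2 ratio of corrected intensity between 2 arrays by each reference RNA probe (above the dotted line) and by the authors' constant, the Hy3 marker spots and the sum of the mouse probes (below it), for ID8 over control (squares), CT-26 over control (triangles) and ID8 over CT-26 (diamonds). The reference probes spread from -0.43 to 1.12 for CT-26 over control, and probes under the floor on either array have no point.

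What each choice of reference does to the miRNA results was asked by dividing every array by that probe. Under the authors' constant, 8 of 165 miRNAs were at least 2-fold higher and 5 lower for ID8 over control. Scaled to SNORD2, 5 were higher and 8 lower, and scaled to U6-snRNA-1, 3 were higher and 24 lower. The geometric mean of SNORD3@ and SNORD2 gave 5 and 9, and that of U6-snRNA-2, SNORD3@ and SNORD2 gave 3 and 24. The U6-snRNA-2 probe moved the median miRNA ratio down by 1.27, so that 117 miRNAs, or 70.9%, were at least 2-fold lower and 1 higher.

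For CT-26 over control the pair of small nucleolar probes pulled the counts in opposite directions. Under the authors' constant 21 of 158 miRNAs were higher and 11 lower. With SNORD2 as the reference, 36 were higher and 7 lower. With SNORD3@ there were 10 on the higher and 31 on the lower side. Their geometric mean gave 21 and 10, with the median miRNA ratio 0.02 above that under the authors' constant, and adding U6-snRNA-2 to the mean gave 13 and 24. Scaled to U6-snRNA-2 alone, 1 was higher and 83, or 52.5%, were lower.

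For ID8 over CT-26 the U6-snRNA-2 and SNORD3@ scalings stayed near the 4 higher and 11 lower of 175 under the authors' constant, at 4 and 14 and at 5 and 9. Scaled to SNORD2, 1 was higher and 38 lower. SNORD13, near the floor, gave 11 higher and 3 lower.

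**Figure D3:**
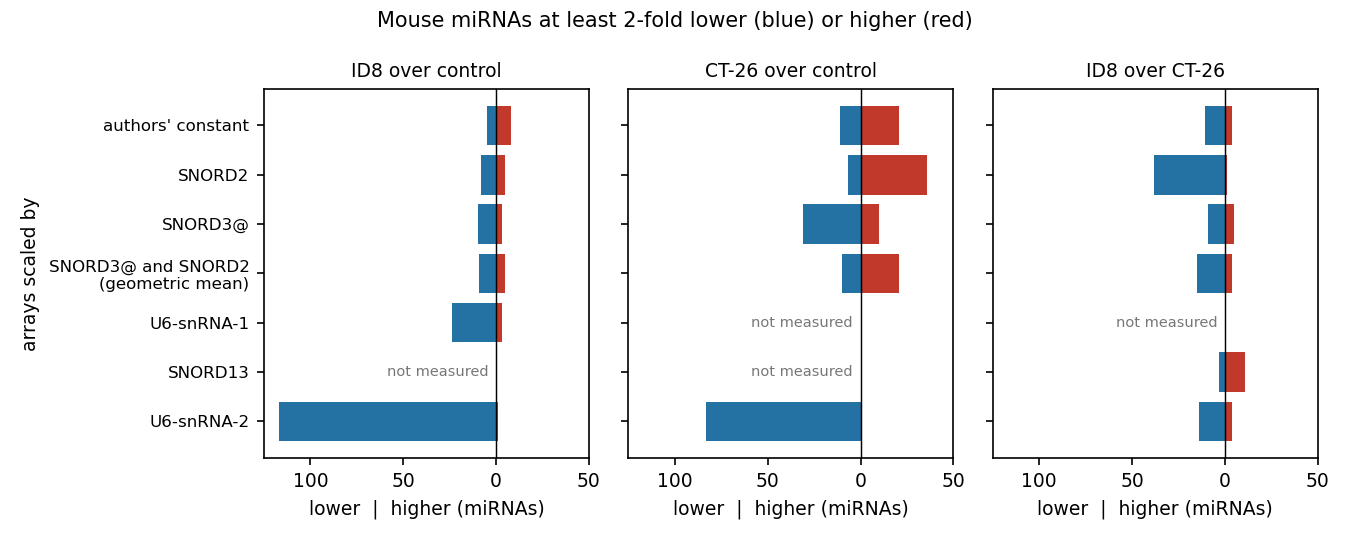
Number of mouse miRNAs at least 2-fold lower (blue, to the left) and higher (red, to the right) in each comparison when the arrays are scaled by the authors' constant or by a reference RNA. U6-snRNA-2 gives 117 and 83 lower miRNAs in the comparisons with the control, and SNORD2 gives 36 higher for CT-26 over control.

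Some miRNAs passed 2-fold under all of the authors' constant, U6-snRNA-2, SNORD3@ and SNORD2. For ID8 over control these were 1 higher, miR-22, and 5 lower, namely miR-138, miR-24-2*, miR-433*, miR-673-3p and miR-708. Between CT-26 and control they were again miR-22 and 7 lower, namely miR-138, miR-24-2*, miR-433*, miR-466b-5p, miR-483, miR-574-5p and miR-678. Between the co-cultures they were miR-574-5p, ID8 over CT-26, on the higher side and 9 on the lower side, among them miR-103, miR-129-5p and miR-194. These names follow from the counts and were chosen after their values were seen. Each scaling shifts every ratio of a comparison by the same amount, so passing all of them equals passing the strictest in that direction. For ID8 over control the 5 lower are those lower under the authors' constant, and miR-22 is the 1 higher under U6-snRNA-2. Passing under every reference therefore adds no support. miR-22 read 117.5 units of corrected intensity in the control, 703 in ID8 and 571.5 in CT-26, so its ratio to the control exceeded that of U6-snRNA-2 on both.

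miRNAs often used as endogenous references differed between the arrays as well. Of 12 listed (miR-16, miR-103, miR-191, miR-26a, miR-93, miR-25, miR-423-5p, miR-423-3p, let-7a, miR-24, miR-30c and miR-99a), 6 were measured for ID8 over control, 5 for CT-26 over control and 8 for ID8 over CT-26. For ID8 over control their log2 ratios of normalized intensity ran from -0.24 for miR-24 to 1.16 for miR-16, a range of 1.39 with a median of 0.04. Between CT-26 and control they ran from 0.33 for miR-30c to 1.44 for miR-103, with a median of 0.73, beside 0.01 over all mouse miRNAs. The co-cultures, ID8 over CT-26, gave ratios from -1.44 for miR-103 to 0.20 for miR-26a with a median of -0.33.

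Within the list, miR-30c and miR-423-5p differed least among the 5 measured on all 3 arrays. miR-30c had normalized intensities of 0.745 in the control, 0.770 in ID8 and 0.940 in CT-26, and miR-423-5p of 0.989, 1.02 and 1.33. Both had the CT-26 array as the highest, unlike U6-snRNA-2. miR-16 had normalized intensities of 0.764, 1.70 and 1.76 and passed 2-fold in both comparisons with the control, while miR-103, at 0.232, 0.232 and 0.629, did so for CT-26 alone. miR-25 and miR-99a read at most 6.75 units of corrected intensity on any array.

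miRNAs with a pattern like that of a reference probe were found by the distance between pairs of log2 ratios, ID8 over control and CT-26 over control, over 158 miRNAs at the floor on all 3 arrays. Nearest to U6-snRNA-2 were miR-16 at a distance of 0.17, let-7d at 0.29, miR-20a at 0.30, miR-17 at 0.34 and miR-465b-5p at 0.49. With 2 ratios that share the control array, such likeness is a description of 3 arrays. In the control miR-17 read 56 units of corrected intensity and let-7d 64, where the brightest negative probe read 59. The ratios and distances of miR-17 and let-7d therefore rest on dim control readings. On that array miR-16 read 248.25 units, miR-20a 209 and miR-465b-5p 117. let-7d has a pair of probes, and the other one read at most 8.75 units of corrected intensity.
Their mature sequences, from RefSeq (GRCm38.p6), are shown with let-7a of the list above because shared sequence bears on which of these readings are separate, and capitals mark the seed, bases 2 to 8, which pairs with target mRNAs.
miR-16: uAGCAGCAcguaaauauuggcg
let-7d: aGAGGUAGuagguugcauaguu
let-7a: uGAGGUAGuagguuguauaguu
miR-20a: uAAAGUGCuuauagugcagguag
miR-17: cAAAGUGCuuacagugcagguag
miR-465b-5p: uAUUUAGAauggugcugaucug
miR-17 and miR-20a share the seed AAAGUGC and differ at 2 positions, so their probes may share signal. let-7d and let-7a share the seed GAGGUAG and also differ at 2 positions, and let-7a had log2 ratios of 0.62 and 0.73.

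The neighbours of SNORD3@ lay closer, at distances of 0.05 for miR-691, 0.06 for miR-877, 0.08 for miR-452 and miR-184 and 0.09 for miR-212. None of these 5 is on the list of reference miRNAs, whereas miR-16, nearest to U6-snRNA-2, is. For ID8 over control, 128 of 165 miRNAs had a lower ratio than SNORD3@, against 160 for U6-snRNA-2. SNORD3@ thus lies nearer the middle of the miRNA ratios, where its shorter distances say little about likeness.

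**Figure D4:**
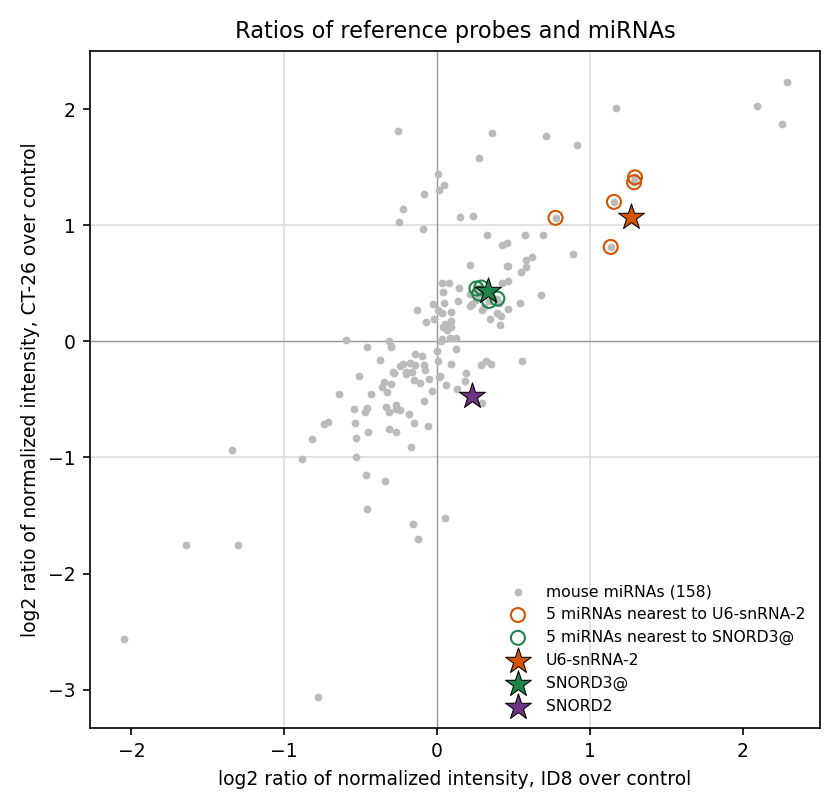
Log2 ratio of normalized intensity for ID8 over control (horizontal) and for CT-26 over control (vertical) of 158 mouse miRNAs (grey points) and of U6-snRNA-2, SNORD3@ and SNORD2 (stars), with the 5 miRNAs nearest to U6-snRNA-2 and to SNORD3@ ringed and lines at 0 and at 2-fold. U6-snRNA-2 lies at 1.27 and 1.07, among few miRNAs, SNORD3@ at 0.33 and 0.43, and SNORD2 at 0.23 and -0.47, below the horizontal line at 0.

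The higher reading of U6-snRNA-2 on the co-culture arrays went with some other measures and not with others. The summed corrected intensity of the 7 blood and myeloid miRNAs was at least 2-fold higher on both. Of its members at the floor in the control, miR-142-5p, miR-146a, miR-21 and miR-22 were at least 2-fold higher on both after normalization. miR-142-3p was not, with log2 ratios to the control of 0.13 for ID8 and -0.41 for CT-26. In the control miR-146a read 54.25 units of corrected intensity and miR-21 read 65.5, near the floor of 50, so their ratios rest on dim readings. The sum of the 2 red cell miRNAs, both under the floor in the control, was higher on both co-culture arrays as well. So was the number of mouse probes at the floor. The median local background over all probes was 57.75 units in the control, 49.5 in ID8 and 48.25 in CT-26, and the summed corrected intensity of all mouse probes was 230849, 246236 and 203397 units. Their part in the ratios of the reference probes was not tested.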

How the data were processed

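Per the series' design text and the labels' protocols, Hy3-labelled total RNA was hybridised to miRCURY arrays, and a GenePix 4000B scanner with GenePix Pro 6 software read them. The deposited table gives, per the file headers, raw, corrected and normalized intensity for each probe, all linear, on 3 arrays. Every one of the 8448 raw or corrected values is a multiple of 0.25. The authors' normalized intensity equals corrected intensity divided by 325 (control), 398.25 (ID8) or 335.25 (CT-26). These are the medians of the 159 mouse probes that reach 50 units on each array, as the values show; the sources used here do not state the rule. The values of the series matrix were identical to those normalized intensities, so scale and centring are known. The 1D8 columns were taken as ID8 on that match. Centring by that constant leaves the reference probes free to differ.

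Log2 ratios were taken from normalized intensity where both arrays reached 50 units of corrected intensity, with probes of 1 miRNA name averaged. Each probe was named by the table, and the sequences of the probes were not used. A 2-fold difference was counted. Alternatives were other scalings, floors, an offset of 50 and other thresholds. Scaling to marker spots and to summed mouse signal was chosen after seeing the data. The calculation was tested on simulated data. Members and lists were chosen with earlier results of these data known. The named miRNAs are the listed references, the 5 nearest to U6-snRNA-2 and to SNORD3@, and those counted under every reference. Python 3.11.15, numpy 2.4.6 and pandas 2.3.3 were used.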

Additional observations from a re-analysis of the deposited data

Results flagged for a closer look

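In 2 probes the co-cultures pointed opposite ways from the control, and the difference was not tested. SNORD2 had log2 ratios of 0.23 for ID8 over control and -0.47 for CT-26 over control, 0.70 apart. U6-snRNA-1 had a log2 ratio of 0.62 for ID8 over control and was at least 1.27-fold lower than the control beside CT-26 cells. Both comparisons share the control array. U6-snRNA-1 read 61.5 units in the control, where the brightest negative probe read 59, and 36.5 in CT-26, where it read 52. The other 7 negative probes read at most 10.75 units in the control and 6.25 in CT-26. The values of U6-snRNA-1 against the control thus rest on readings near or under the brightest negative probe alone and set no firm direction.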

How the results depend on the processing

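Of 117 log2 ratios of reference probes recomputed under other scalings, floors or an offset, 115 stayed within 1.5-fold and on the same side of 2-fold. A floor only decides whether a probe is kept, so the recomputations under other floors could not move and say nothing about stability. Of 58 counts of miRNAs 47 moved by over 1.5-fold, and 5 of 17 list medians moved by over 1.5-fold or across 2-fold. For ranges only a shift of over 1.5-fold was counted, and 2 of 15 moved. The range for ID8 over CT-26 fell from 1.08 to 0.80 at a floor of 100 or 200, which drops SNORD13. With an offset of 50 or with raw intensity it was 0.90, so it went under 2-fold there too. Quantile normalization moved U6-snRNA-2 to 0.99 for ID8 over control and 0.92 for CT-26 over control, just under 2-fold. With no floor the range between reference probes was 2.57 for ID8 over control and 1.94 for ID8 over CT-26, because dim probes enter. The median of the reference miRNAs for ID8 over control was -0.58 scaled to U6-snRNA-1 and -1.22 scaled to U6-snRNA-2. For CT-26 over control it was -0.34 scaled to U6-snRNA-2 and 1.20 scaled to SNORD2, and for ID8 over CT-26 it was -1.03 scaled to SNORD2. Counts of higher and lower miRNAs follow in pairs. For ID8 over control they were 1 and 117 scaled to U6-snRNA-2, 3 and 24 to U6-snRNA-1, 3 and 10 to SNORD3@, 5 and 8 to SNORD2, 5 and 9 to the geometric mean of SNORD3@ and SNORD2, and 3 and 24 to that of all 3. They were 4 and 3 at a floor of 100, 45 and 50 with no floor, 15 and 12 at 1.5-fold and 3 and 1 at 4-fold. For CT-26 over control they were 1 and 83 scaled to U6-snRNA-2, 10 and 31 to SNORD3@, 36 and 7 to SNORD2, and 13 and 24 to the mean of all 3. They were 13 and 6 at a floor of 100, 62 and 71 with no floor, 36 and 29 at 1.5-fold and 3 and 2 at 4-fold. For ID8 over CT-26 they were 1 and 38 scaled to SNORD2, 11 and 3 to SNORD13, 34 and 32 with no floor, 11 and 18 at 1.5-fold and 1 and 1 at 4-fold, and 7 were lower at a floor of 100. The scalings and thresholds move these counts by construction. No paired analysis was possible because each group has 1 array. Signal over background limits U6-snRNA-1, SNORD13 and the 7 probes under the floor.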
